A study of Homo sapiens with 8 samples.

Results

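Protein phosphatase 1 (PP1) and its regulators were followed in T47D cells, an established human breast carcinoma line. The 10 genes were the catalytic subunits PPP1CA, PPP1CB and PPP1CC and the regulators PPP1R2, PPP1R7, PPP1R8, PPP1R10, PPP1R11, PPP1R12A and PPP1R15A, and their probe sets were found by gene symbol. Of these, 9 genes were measured, out of 18417 genes with a probe set of their own. PPP1R8, which encodes the nuclear inhibitor NIPP1, is not named in the platform's gene table used here and was not analysed. The 9 genes have 12 probe sets. The 2 probe sets of PPP1R11 hold identical values on every array, as do the 3 probe sets of PPP1R10, so each gene gives 1 set of values. A further 3 probe sets carry PPP1R2 together with PPP1R2B and PPP1R2P1 and cannot be given to 1 gene.

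All cells had been infected with lentivirus, which carried a doxycycline-inducible hairpin RNA (shRNA) against EglN2 in one line and the control hairpin Scr in the other. Both lines were exposed to doxycycline at 1 ug/ml, and RNA was taken at day 0 (0 h) and at day 2 (48 h), which gave 4 groups of 2 arrays. No cells without virus and no day 2 cells without doxycycline were analysed here, and the labels do not say whether a line was a clone or a pool, or whether replicates were separate cultures. P-values therefore measure only the spread between these arrays, which may be technical. Values are log2 levels per probe set after RMA, the array normalization used by the submitters, and a difference of 1 is a 2-fold difference. In such bulk RNA, fewer cells with a transcript and less transcript per cell cannot be told apart.

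PP1 removes phosphate from serine and threonine on many proteins. Its catalytic subunits are nearly alike, and a large set of regulatory subunits decides where each acts and on what, mostly through short docking motifs. The regulators here cover several roles: PPP1R2 (inhibitor 2) and PPP1R11 (inhibitor 3) restrain the enzyme, PPP1R7 (SDS22) forms a complex with PPP1R11 and the catalytic subunit during its assembly, PPP1R10 (PNUTS) holds PP1 on chromatin, PPP1R12A (MYPT1) directs it to myosin, and PPP1R15A (GADD34) directs it to the translation factor eIF2 alpha in stressed cells.

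The sequences before the start sites of 3 regulators are shown, because these are the regulator with the widest range over the arrays (PPP1R11), the one with the largest difference within the EglN2 shRNA line (PPP1R10) and a known target of stress signalling (PPP1R15A). They come from RefSeq on build GRCh38.p14, which need not be the build of the array, and cover the 250 bases before the start. Of the 10 genes, 9 have an entry there; PPP1CA has none. PPP1R11 lies at chr6:30066948-30067197 (plus strand), PPP1R10 at chr6:30617244-30617493 (minus strand) and PPP1R15A at chr19:48872171-48872420 (plus strand). Capitals mark, on either strand, the GC box GGGCGG, the CCAAT box, the TATA box TATAAA, the core TGACG of the cyclic AMP response element, which ATF and CREB factors bind, and the hypoxia response cores ACGTG and GCGTG, which HIF binds. Matches can overlap, as where TGACG is read on both strands.
PPP1R11: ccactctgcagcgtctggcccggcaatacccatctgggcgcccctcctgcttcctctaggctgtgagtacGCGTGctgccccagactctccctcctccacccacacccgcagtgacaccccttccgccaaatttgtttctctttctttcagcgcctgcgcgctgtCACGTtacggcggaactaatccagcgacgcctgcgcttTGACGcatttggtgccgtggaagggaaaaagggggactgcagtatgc
PPP1R10: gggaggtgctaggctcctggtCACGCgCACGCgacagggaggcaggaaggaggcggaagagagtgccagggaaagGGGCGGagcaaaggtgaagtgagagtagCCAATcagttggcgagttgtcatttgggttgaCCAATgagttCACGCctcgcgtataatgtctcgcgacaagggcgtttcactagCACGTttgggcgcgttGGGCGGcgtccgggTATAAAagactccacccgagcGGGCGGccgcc
PPP1R15A: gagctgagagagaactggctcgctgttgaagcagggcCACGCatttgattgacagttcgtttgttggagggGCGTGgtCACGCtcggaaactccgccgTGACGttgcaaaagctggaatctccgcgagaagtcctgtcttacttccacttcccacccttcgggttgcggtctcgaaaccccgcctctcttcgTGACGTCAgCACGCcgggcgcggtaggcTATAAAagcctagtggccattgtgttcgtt

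The PPP1R11 window holds no GC, CCAAT or TATA box by these letters. It holds 1 TGACG, whose first base lies 47 bases before the start, 1 ACGTG at 85 bases and 1 GCGTG at 180 bases. Among 35116 windows of the same length, 21.2% hold TGACG, 18.5% ACGTG and 32.2% GCGTG. The PPP1R10 window holds 3 GC boxes, 2 CCAAT boxes and 1 TATA box, motifs held by 42.6%, 32.0% and 10.7% of windows, as well as 1 ACGTG and 3 GCGTG. In the PPP1R15A window 3 matches to TGACG are found, 2 of which overlap to form the full palindrome TGACGTCA that begins 58 bases before the start, and a TATA box begins 30 bases before it. That window also holds 4 GCGTG. Hypoxia response cores are found in the 3 windows shown and for PPP1CB, PPP1R7 and PPP1R8, but in no window of PPP1CC, PPP1R2 or PPP1R12A. The 9 genes have 15 windows, and a gene with more windows has more chances of a match. The share of windows with either core was not counted, so no enrichment can be read from this. These matches describe the letters only.

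Over the 21214 probe sets with a gene name, replicate arrays correlated at 0.992 to 0.996 and array medians lay between 7.81 and 7.86. EGLN2 (probe set shared with RAB4B-EGLN2) read 8.26 and 8.29 in the EglN2 shRNA line at day 2, below 8.81 to 9.04 on the other 6 arrays, with a change in that line of -0.67 (SE 0.11) that did not pass (limma, adjusted p = 0.134). Of 14 probe sets for luminal epithelial markers 13 lay above the median of all probe sets, with KRT8 and KRT19 near the top and the lowest a second ESR1 set. Of 12 probe sets for leukocyte, endothelial and fibroblast markers 1, COL1A1, lay above the median. The mean level of these 12 was 5.91 to 5.94 on the Scr day 2 arrays and 5.86 to 6.07 on the others.

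PPP1R11 stood apart in a single group. It read 9.78 and 9.70 in the Scr line at day 0, 8.75 and 8.91 in the Scr line at day 2, 9.70 and 9.67 in the EglN2 shRNA line at day 0, and 9.71 and 9.62 in the EglN2 shRNA line at day 2. The pair of Scr day 2 arrays lay below all 6 others, which spanned 9.62 to 9.78. How many probe sets had such a low pair was not counted. Between the days in the Scr line, 47.8% of probe sets did not overlap, in either direction. The group means were 9.74 ± 0.06, 8.83 ± 0.11, 9.69 ± 0.02 and 9.67 ± 0.06 in the same order (SD, n = 2 each). Between day 0 and day 2 the difference was -0.91 (SE 0.11) in the Scr line, a 1.88-fold lower level, and -0.02 (SE 0.11) in the EglN2 shRNA line. The genes were chosen by an earlier look at the Scr arrays, in which the PPP1R11 value drew attention to the family, so every PPP1R11 difference that uses Scr arrays is a description and carries no test. In the EglN2 shRNA line, whose arrays did not enter that choice, the change did not pass (limma, adjusted p = 0.994, 95% confidence interval -0.26 to 0.22).

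The same 2 arrays set the PPP1R11 difference between the lines at day 2 and do not enter that at day 0. At day 0 the EglN2 shRNA line minus the Scr line was -0.06 (SE 0.11), and the groups met at 9.70. At day 2 it was 0.84 (SE 0.11), with the EglN2 shRNA arrays above the Scr arrays, and the difference of the changes was 0.89 (SE 0.15). Each of these 3 comparisons shares Scr arrays with the Scr change and is not independent of it. The day 0 and day 2 comparisons have no array in common, and the difference of the changes uses the arrays of both. The range of PPP1R11 over the 8 arrays was 1.03, wider than that of 98.1% of probe sets, while its pooled SD within groups was 0.07. Both ends of this range are Scr arrays, on which PPP1R11 was picked, so its rank is a description and no support. Between the days in the Scr line, the 12 leukocyte, endothelial and fibroblast probe sets had a median difference of -0.08, with 4 positive and 8 negative, from -0.31 for CD68 to 0.15 for DCN and with PTPRC at -0.01. The 14 luminal probe sets had a median of -0.03, with 6 positive and 8 negative, from -0.67 for TFF1 to 0.22 for XBP1, and TFF1 also differed by -0.54 in the EglN2 shRNA line. Over all probe sets the Scr median was -0.01, and 0 markers passed in either line. The part of these markers in the PPP1R11 values was not tested. Without Scr day 2 replicate 1 the Scr change was -0.83, and without replicate 2 it was -0.99.

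**Figure D1:**
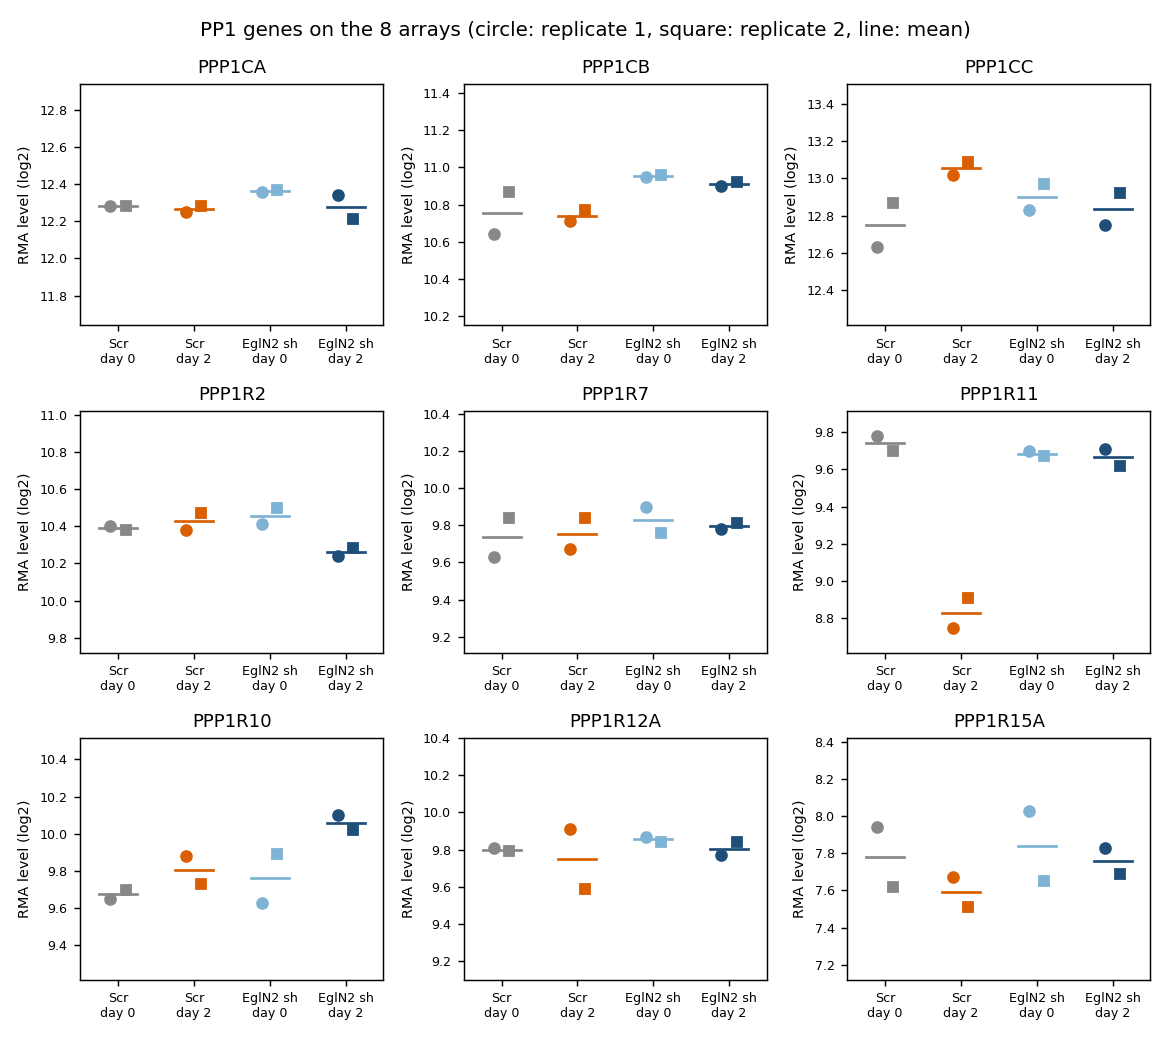
RMA log2 level of the 9 measured PP1 genes on each of the 8 arrays, by line and day, with circles for replicate 1, squares for replicate 2 and a line at the mean of 2 arrays. PPP1R11 sits at 8.75 and 8.91 in the Scr line at day 2 and between 9.62 and 9.78 elsewhere, while the other genes range over at most 0.52.

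The other inhibitor and the partner of PPP1R11 had no such low pair on the Scr day 2 arrays. PPP1R2 read 10.40 and 10.38 in the Scr line at day 0, against 10.38 and 10.47 at day 2. In the EglN2 shRNA line it read 10.41 and 10.50 at day 0, against 10.24 and 10.28 at day 2, its lowest pair. This difference of -0.20 (SE 0.10, 95% confidence interval -0.42 to 0.03) did not pass (limma, adjusted p = 0.899). The 2 groups did not overlap, which held for 15.5% of probe sets in the downward direction. The line difference was 0.07 (SE 0.10) at day 0 and -0.17 (SE 0.10) at day 2 (limma, adjusted p = 0.799 and 0.995). Its range over the 8 arrays was 0.26.

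The 3 probe sets shared by PPP1R2, PPP1R2B and PPP1R2P1, which hold identical values, read 6.06 and 6.23 in the Scr line at day 0, against 6.38 and 6.40 at day 2. With the EglN2 hairpin they read 6.40 and 6.43 at day 0, against 6.01 and 6.35 at day 2. Both day 2 arrays were thus above both day 0 arrays in the Scr line and below them in the EglN2 shRNA line. Taken by line, 23% of probe sets did so upward with Scr and 15.5% downward with the EglN2 hairpin. PPP1R2B and PPP1R2P1 are near copies of PPP1R2, and the signal cannot be divided between them. In the EglN2 shRNA line the change was -0.24 (SE 0.13, limma, adjusted p = 0.917), and it was -0.07 without day 2 replicate 1.

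PPP1R7, whose protein SDS22 binds the catalytic subunit together with inhibitor 3, read 9.63 and 9.84 in the Scr line at day 0, against 9.67 and 9.84 at day 2. With the EglN2 hairpin it read 9.90 and 9.76 at day 0, against 9.78 and 9.81 at day 2, and all 4 groups overlapped. Its change was -0.04 (SE 0.12) in the EglN2 shRNA line (limma, adjusted p = 0.994) and 0.02 (SE 0.12) in the Scr line. Its differences between the lines, 0.10 and 0.04 (SE 0.12 each), did not pass either (limma, adjusted p = 0.749 and 0.995).

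Of the catalytic subunits, PPP1CA ranged least and PPP1CC most. PPP1CA had the narrowest range of the 9 genes, 0.16, narrower than all but 1.89% of probe sets. It read 12.28 and 12.28 in the Scr line at day 0, 12.25 and 12.28 at day 2, 12.36 and 12.37 in the EglN2 shRNA line at day 0, and 12.34 and 12.21 at day 2. Under the EglN2 hairpin its levels differed by -0.09 between the days (SE 0.10, limma, adjusted p = 0.979), with a 95% confidence interval of -0.31 to 0.13. In the Scr line the difference was -0.02 (SE 0.10).

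PPP1CB was higher in one line than in the other on every array. It read 10.95, 10.96, 10.90 and 10.92 on the 4 EglN2 shRNA arrays and 10.64, 10.87, 10.71 and 10.77 on the 4 Scr arrays. All 4 EglN2 shRNA arrays lay above all 4 Scr arrays, as for 2.04% of probe sets. This was noticed after the values were seen. The difference was 0.20 (SE 0.11) at day 0 and 0.17 (SE 0.11) at day 2 and passed at neither (limma, adjusted p = 0.515 and 0.995). Between the days PPP1CB differed by -0.05 (SE 0.11) in the EglN2 shRNA line (limma, adjusted p = 0.994) and by -0.02 (SE 0.11) in the Scr line.

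PPP1CC, the isoform also known for its place at kinetochores and nucleoli, read 12.63 and 12.87 in the Scr line at day 0, against 13.02 and 13.09 at day 2. It read 12.83 and 12.97 in the EglN2 shRNA line at day 0, against 12.75 and 12.92 at day 2. The Scr groups did not overlap, with day 2 higher as for 23% of probe sets, and the EglN2 shRNA groups did. The difference in the Scr line was 0.31 (SE 0.12) and under the EglN2 hairpin the change was -0.07 (SE 0.12, limma, adjusted p = 0.989). At day 2 the line difference was -0.22 (SE 0.12), with the EglN2 shRNA arrays below the Scr arrays, and did not pass (limma, adjusted p = 0.995). Replicate 2 was above replicate 1 in all 4 groups for PPP1CC and for PPP1CB, as for 9.61% of probe sets.

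With all arrays, PPP1R10 had the largest difference of the 9 genes within the EglN2 shRNA line, an order that rested on 1 array. Without day 0 replicate 1 of that line the difference was 0.17, and that of PPP1R2 was -0.24. Leaving out single arrays gave PPP1R10 differences of 0.17 to 0.43. The PPP1R10 protein, PNUTS, joins WDR82 and TOX4 in a complex that brings PP1 to RNA polymerase II. It read 9.63 and 9.89 in that line at day 0, against 10.10 and 10.02 at day 2. The Scr arrays read 9.65 and 9.70 before doxycycline, then 9.88 and 9.73. The day 2 arrays lay above the day 0 arrays in each line, which held for 15.2% of probe sets with the EglN2 hairpin and 23% with Scr. With the EglN2 hairpin PPP1R10 differed by 0.30 (SE 0.12, 95% confidence interval 0.03 to 0.57), a 1.23-fold difference with an unadjusted p of 0.0313 that did not pass over all probe sets (limma, adjusted p = 0.779). An unadjusted p under 0.05 was seen for 5.77% of probe sets there. The difference in the Scr line was 0.13 (SE 0.12), and the difference of the 2 changes was 0.17 (SE 0.17).

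PPP1R12A, the myosin-targeting subunit, read 9.81 and 9.79 in the Scr line at day 0, against 9.91 and 9.59 at day 2. It read 9.87 and 9.84 in the EglN2 shRNA line at day 0, against 9.77 and 9.84 at day 2. The spread between the Scr day 2 arrays, 9.59 and 9.91, covered all the other values. The change was -0.05 (SE 0.12) in each line, and in the EglN2 shRNA line it did not pass (limma, adjusted p = 0.994, 95% confidence interval -0.32 to 0.22).

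PPP1R15A is induced by stress and, with PP1, reverses the phosphorylation of eIF2 alpha. It read 7.94 and 7.62 in the Scr line at day 0, against 7.67 and 7.51 at day 2. With the EglN2 hairpin it read 8.03 and 7.65 at day 0, against 7.83 and 7.69 at day 2. Replicate 1 was above replicate 2 in all 4 groups, as for 10.6% of probe sets, and its pooled SD within groups, 0.19, was the widest of the 9 genes. The change was -0.08 (SE 0.16, 95% confidence interval -0.43 to 0.27) in the EglN2 shRNA line and did not pass (limma, adjusted p = 0.989). Without day 0 replicate 1 of that line it was 0.11. In the Scr line the difference was -0.19 (SE 0.16).

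Over the 9 genes, 0 passed in the EglN2 shRNA line, where limma called 0.00943% of all probe sets. The median change was -0.05, against 0.005 over all probe sets, with 8 genes negative and 1 positive, and PPP1R10 was the one of the 9 genes with an unadjusted p under 0.05. In 4 of the 9 genes the day 2 arrays did not overlap the day 0 arrays, 3 lower and 1 higher, where 30.7% of all probe sets did not overlap. In the Scr line the median was -0.02, against -0.01 over all probe sets, with 3 of 9 genes not overlapping where 47.8% of probe sets did not. PPP1R11, whose Scr value drew attention to the family, was one of these 3. Leaving PPP1R11 aside, the differences in the Scr line ran from -0.19 to 0.31, and those in the EglN2 shRNA line from -0.20 to 0.30.

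**Figure D2:**
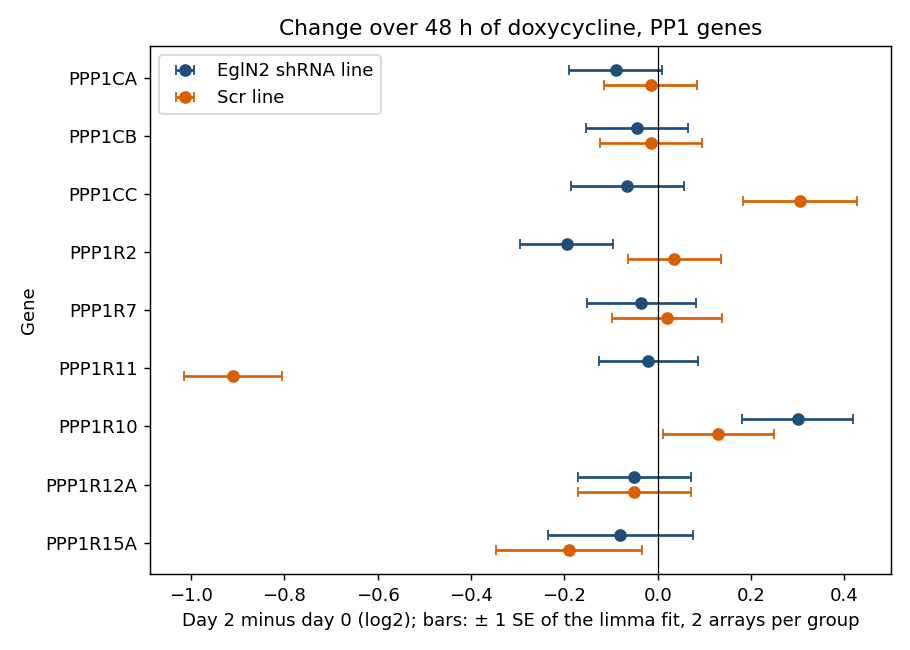
Difference between day 2 and day 0 (log2) of the 9 PP1 genes, by line, with bars of 1 SE from the limma fit to 2 arrays per group. PPP1R11 reads -0.91 in the Scr line and -0.02 in the EglN2 shRNA line, and the other 8 genes lie between -0.20 and 0.31 in both lines.

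Between the lines at day 0, 8 of the 9 genes were positive (EglN2 shRNA minus Scr), with a median of 0.09 against 0.005 over all probe sets. In 4 of them the EglN2 shRNA arrays lay above the Scr arrays, where 22.2% of probe sets did so. At day 2, 7 of 9 were positive with a median of 0.06, and 4 lay above and 2 below without overlap, against 15.6% and 14.8% of probe sets. PPP1R11, picked on these Scr arrays, was among the 7 and among the 4. Of the 8 genes tested between the lines, all but PPP1R11, 0 passed at either day, where limma called 0% of probe sets at day 0 and 0.0754% at day 2. A positive day 0 median was not particular to these genes. It was 0.11 for 12 catalytic subunits of other phosphatases and 0.13 for the partners of PNUTS and NIPP1, lists described below. For 37 further PP1 regulators it was -0.095. The cause of these offsets was not tested.

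PPP1R11 and PPP1R10 both lie on chromosome 6. Among the 3 genes on each side of PPP1R11 in the RefSeq table, POLR1H, RNF39 and TRIM31 were measured. POLR1H, a subunit of RNA polymerase I, read 7.85 and 8.01 in the Scr line at day 0, against 8.12 and 7.95 at day 2, a difference between the days of 0.11 (SE 0.13, limma, adjusted p = 0.734), and its second probe set differed by 0.23 (SE 0.13, limma, adjusted p = 0.488). RNF39 differed by -0.21 (SE 0.15, limma, adjusted p = 0.563) in the Scr line. The 3 probe sets of TRIM31 differed by -0.14, -0.09 and -0.14 there. None of the 3 genes passed in the Scr line or in the EglN2 shRNA line, and none had both Scr day 2 arrays below the other 6.

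The genes whose levels over the 8 arrays were most like those of PPP1R11, by Pearson correlation among 3512 probe sets with an SD of at least 0.2, were PARP1 (r = 0.924), RBM47 (0.894), VPS41 (0.866), TULP3 (0.864) and TGOLN2 (0.860). The 8 points are 4 groups of 2 arrays, and these correlations rest on the Scr day 2 pair, in which all 5 genes were also lowest. PARP1 read 11.21 and 11.21 in the Scr line at day 0, 10.59 and 10.87 at day 2, and 11.21 to 11.41 on the EglN2 shRNA arrays. Its difference in the Scr line was -0.48 (SE 0.12), and those of the other 4 genes ran from -0.36 to -0.32. The ranges of the 5 genes, 0.54 to 0.82, were narrower than the 1.03 of PPP1R11.

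**Figure D3:**
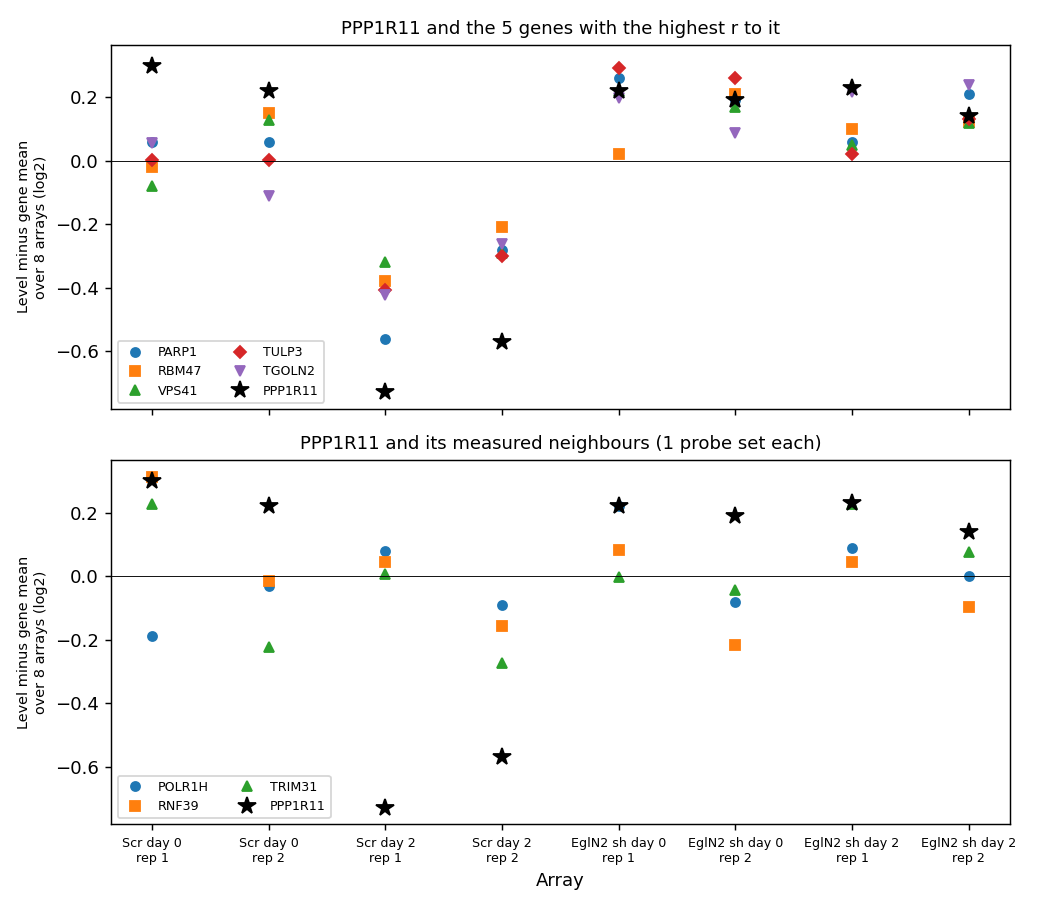
Level on each of the 8 arrays minus the gene's mean over the arrays (log2): above, PPP1R11 and the 5 genes with the highest correlation to it; below, PPP1R11 and its measured neighbours on chromosome 6, 1 probe set each. PPP1R11 and the 5 genes, which were picked by that correlation, are all lowest on the 2 Scr day 2 arrays. The neighbours, picked by position, are not.

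Partners of the PPP1R7 and PPP1R11 complex were taken as a list of 4: the segregase VCP, which dismantles that complex, and its cofactors NSFL1C, UBXN2A and UBXN2B. None passed in either line (4 measured), with a median change of -0.21 in the EglN2 shRNA line and 0.01 in the Scr line, against 0.005 and -0.01 over all probe sets. UBXN2A read 8.01 and 8.37 in the Scr line at day 0, against 8.77 and 8.81 at day 2, a difference of 0.60 (SE 0.13, limma, adjusted p = 0.228). Cells with the EglN2 hairpin read 8.60 and 8.71 at day 0, against 8.21 and 8.30 at day 2, a difference of -0.40 (SE 0.13, limma, adjusted p = 0.709). The 2 lines thus had no overlap between days in opposite directions, and the difference of the changes, -1.0 (SE 0.18), did not pass (limma, adjusted p = 0.596). Upward separation in the Scr line held for 23% of probe sets and downward in the EglN2 shRNA line for 15.5%. The share with both was not counted. NSFL1C differed by -0.27 (SE 0.10, limma, adjusted p = 0.768) in the EglN2 shRNA line, and UBXN2B by 0.05 (SE 0.11, limma, adjusted p = 0.867) in the Scr line.

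Of the partners of PNUTS and NIPP1, 7 genes with 8 probe sets, 0 passed in either line. The splicing factor CDC5L, which binds NIPP1, read 10.44 and 10.42 in the EglN2 shRNA line at day 0, against 9.61 and 9.89 at day 2, and 10.36 to 10.49 on the 4 Scr arrays. With the EglN2 hairpin CDC5L differed by -0.68 (SE 0.12, limma, adjusted p = 0.170). The kinase MELK and the methyltransferase EZH2, both ligands of NIPP1, differed by 0.47 (SE 0.15) and 0.28 (SE 0.12) between the days in the Scr line and by -0.03 each (SE 0.15 and 0.12) in the EglN2 shRNA line. The splicing factor SF3B1, another NIPP1 ligand, differed by -0.20 (SE 0.11, limma, adjusted p = 0.926) in the EglN2 shRNA line and 0.01 (SE 0.11) in the Scr line.

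The eIF2 alpha circuit, on which PPP1R15A acts, holds its relative PPP1R15B, the eIF2 alpha kinases and targets of ATF4. Of its 12 genes (13 probe sets) 0 passed in either line. Differences of 0 or above were found for 11 of 13 probe sets in each line. The medians were 0.12 in the EglN2 shRNA line and 0.11 in the Scr line, against 0.005 and -0.01 over all probe sets. The Scr count includes EIF2S1, whose difference there was 0. An unadjusted p under 0.05 was reached upward by 5 of 13 in the EglN2 shRNA line and 4 of 13 in the Scr line, where 2.73% and 7.49% of probe sets did so. The list was chosen with earlier results of these data known, so these counts are a description. Between day 0 and day 2 ASNS, the asparagine synthetase, differed by 0.97 (SE 0.19, limma, adjusted p = 0.211) in the EglN2 shRNA line and 0.77 (SE 0.19, limma, adjusted p = 0.253) in the Scr line. ATF4, the transcription factor itself, has 2 probe sets, which differed: one differed by 0.48 (SE 0.11, limma, adjusted p = 0.337) in the EglN2 shRNA line and 0.40 (SE 0.11, limma, adjusted p = 0.265) in the Scr line, and the other 0.34 and 0.07. PPP1R15B, the constitutive eIF2 alpha phosphatase subunit, differed by 0.24 (SE 0.11, limma, adjusted p = 0.874) and 0.16 (SE 0.11, limma, adjusted p = 0.543). The genes of the list did not differ alike. TRIB3 differed by 0.035 in the EglN2 shRNA line and -0.07 in the Scr line. In the same order ATF3 differed by 0.065 and -0.065, and CHAC1 by 0.575 and 0.175.

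A list of 41 further PP1 regulators had 37 measured genes, of which 0 passed in any of the 5 comparisons. Its medians were 0.02 in the EglN2 shRNA line and -0.02 in the Scr line, and its differences ran from -0.21 to 0.29 and from -0.28 to 0.53. The value of 0.53 (SE 0.11, limma, adjusted p = 0.229) was that of PHACTR1, an actin-binding PP1 regulator, which read 8.69 and 8.51 in the Scr line at day 0, against 9.17 and 9.08 at day 2. On the EglN2 shRNA arrays PHACTR1 read 8.33 to 8.50, and at day 2 the line difference was -0.70 (SE 0.11, limma, adjusted p = 0.0990). KNL1, which brings PP1 to kinetochores, differed by 0.46 (SE 0.16) in the Scr line and -0.21 (SE 0.16) in the EglN2 shRNA line. PPP1R1B (DARPP-32) differed by 0.21 (SE 0.10) in the EglN2 shRNA line and -0.16 (SE 0.10) in the Scr line.

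Genes that control myosin light chains, the substrate that PPP1R12A brings to PP1, numbered 14 measured and 0 passed in either line. Their medians were -0.02 and 0.01, and the kinase ROCK2 differed by -0.26 (SE 0.13, limma, adjusted p = 0.897) and the myosin phosphatase subunit PPP1R12B by 0.14 (SE 0.12, limma, adjusted p = 0.973) in the EglN2 shRNA line. In the Scr line the myosin heavy chain MYH10 differed by 0.26 (SE 0.13, limma, adjusted p = 0.426) and the PP1 inhibitor PPP1R14C by -0.25 (SE 0.14, limma, adjusted p = 0.471). Of 12 catalytic subunits of other serine and threonine phosphatases, 0 passed in either line. PPM1G, a nuclear phosphatase, read 10.54 and 10.69 in the EglN2 shRNA line at day 0, 9.99 and 10.13 at day 2, and 10.70 to 10.82 on the Scr arrays, with a change of -0.56 (SE 0.11, limma, adjusted p = 0.231). PPP3CC, a calcineurin catalytic subunit, differed by -0.34 (SE 0.16, limma, adjusted p = 0.891) in the EglN2 shRNA line. Its relative PPP3CB differed by 0.27 (SE 0.11) and PPP2CB -0.27 (SE 0.11) in the Scr line.

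**Figure D4:**
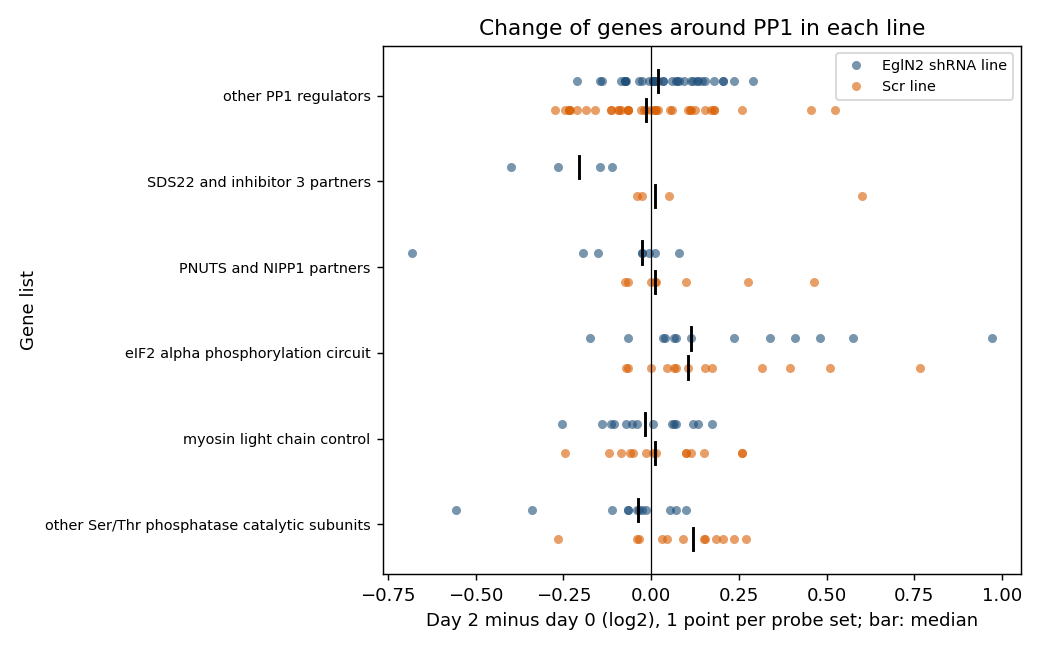
Difference between day 2 and day 0 (log2) of each probe set in 6 lists of genes around PP1, with 1 point per probe set, blue for the EglN2 shRNA line, orange for the Scr line and a black bar at the median. The eIF2 alpha circuit has medians of 0.12 and 0.11, and the 4 partners of SDS22 and inhibitor 3 have a median of -0.21 in the EglN2 shRNA line and 0.01 in the Scr line.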

How the data were processed

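RNA of 8 samples was measured on 8 arrays. The authors deposited log2 levels made by RMA (Expression Console software, per the submitters' processing notes); no version or genome build is given. RMA, which subtracts background, equalises the arrays and pools the probes of a set, can compress differences of dim genes. Of 33297 probe sets, 19460 carried 1 gene name, 1754 several and 12083 none in the platform's gene table; 19429 single names were matched by gene ID to RefSeq (GRCh38.p14). The 21214 named probe sets were fitted together by limma 3.58.1 under R 4.3.3 (4 group means, lmFit, eBayes, 4 residual and 5.53 prior degrees of freedom), two-sided, with Benjamini-Hochberg adjustment over all of them and a threshold of 0.05. The median SE of a difference was 0.12, and the number of arrays limits the precision. An exact permutation test of 2 against 2 cannot go below p = 0.333 and was not run. The scripts were tested on simulated data. Members and gene lists were chosen with earlier results of these data known. For the members, p-values are given only where the comparison did not choose them: the EglN2 shRNA line for all, and the lines at each day for all but PPP1R11. Genes of the other lists were tested in every comparison, and the neighbours between the days in each line. From each list the 2 probe sets with the smallest p in each line were named, besides any that passed. From the eIF2 alpha circuit TRIB3, ATF3 and CHAC1 were named as well. The marker lists are given by their levels, medians and extremes instead. Alternatives covered the block, single arrays, the prior, the probe sets and the scaling.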

Additional observations from a re-analysis of the deposited data

Results flagged for a closer look

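The probe sets shared by PPP1R2, PPP1R2B and PPP1R2P1 read in opposite directions in the 2 lines: every possible day 2 minus day 0 difference was positive in the Scr line and negative in the EglN2 shRNA line. Over all probe sets, 23% did so upward in the Scr line and 15.5% downward in the EglN2 shRNA line. The share with both was not counted. The levels, 6.01 to 6.43, lay below the array medians of 7.81 to 7.86. The difference of the changes was -0.48 (EglN2 shRNA minus Scr), and -0.65 to -0.31 when single arrays were left out. Without EglN2 shRNA day 2 replicate 1, that line's own change was -0.065 and the difference of the changes -0.31. The difference was not tested, since the genes were taken up for a value in the Scr line.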

How the results depend on the processing

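With the replicate block, the count of called probe sets was 13 in the EglN2 shRNA line (2 without it), 42 in the Scr line (0) and 32 between the lines at day 2 (16). The replicate numbers were not taken to pair the samples. Correlations of same-numbered deviations ran from 0.0981 to 0.271, all positive, with 5 of 6 over 0.1, a hint from the data. That 8 of 8 arrays correlated best with their own number follows from these positive values and is no further evidence. An intensity trend called 6 in the Scr line, 2 for the difference of the changes and 26 at day 2. Using the compared arrays alone, or all probe sets of the table, called 0 in the EglN2 shRNA line and 0 at day 2; the former was not run for the difference of the changes. Leaving out single arrays gave 0 to 2 calls in the EglN2 shRNA line and 0 to 15 at day 2, with 0 there without Scr day 2 replicate 1.

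For PPP1R11, leaving out single arrays gave -0.99 to -0.83 in the Scr line, 0.81 to 0.97 for the difference of the changes, 0.755 to 0.915 at day 2 and -0.065 to 0.025 in the EglN2 shRNA line. Quantile normalization gave -0.983, 0.982 and, at day 0, -0.137. It also turned PPP1R12A to -0.0225 and PPP1R2 to -0.0053 at day 0. Single arrays turned the sign of differences near 0. In the EglN2 shRNA line the ranges were -0.15 to 0.02 for PPP1CC, -0.27 to 0.11 for PPP1R15A and -0.105 to 0.035 for PPP1R7. At day 0 they were -0.13 to 0.25 for PPP1R15A, -0.01 to 0.20 for PPP1R7 and -0.045 to 0.215 for PPP1R10. At day 2 they were -0.055 to 0.075 for PPP1CA, -0.105 to 0.215 for PPP1R12A and -0.045 to 0.125 for PPP1R7. In the Scr line they were -0.21 to 0.11 for PPP1R12A and -0.13 to 0.1 for PPP1CB. There PPP1R7 ran from -0.085 to 0.125 and PPP1R2 from -0.01 to 0.08. For the difference of the changes they were -0.16 to 0.16 for PPP1R12A and -0.08 to 0.3 for PPP1R15A. PPP1CB ran from -0.145 to 0.085 and PPP1R7 from -0.16 to 0.05 in that comparison. The cause was not tested. A minimum mean level of 6 left 16923 probe sets and all 9 measured genes. With 2 arrays a group, small differences could not be resolved.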
